A study of Mus musculus with 6 samples.

Results

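The genes described here make cholesterol and control its synthesis through SREBP2, and their transcripts were counted in 4T1-T cells that had been sorted for how much acetylated low-density lipoprotein (acLDL) they took up. The members are 31 genes, found by their symbols in the authors' list of 15973 protein-coding genes, and all 31 passed the filter on low counts that left 12572 genes for testing. 4T1-T is a VM-competent sub-clone of the mouse mammary carcinoma line 4T1, so both populations come from 1 clone, and no untreated cells or cells of another clone were part of the comparison. The cells were kept overnight without serum in medium with 0.3% BSA, given acLDL labelled with Alexa-488 at 10 ug/mL for 4 h, washed and returned for 1 h to complete growth medium with 10% serum. They were then sorted into the 25% with the brightest signal (acLDL-high) and the 25% with the dimmest (acLDL-low). There were 3 replicate numbers, each with 1 acLDL-low and 1 acLDL-high library. Each number is taken here as 1 occasion of the whole procedure, which the labels do not state.

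Animal cells build cholesterol from acetyl-CoA in a long chain of enzymes. The early steps make mevalonate and isoprenoids, the middle steps join farnesyl units into squalene and close it to lanosterol, and the late steps strip methyl groups and move double bonds until cholesterol is reached. SREBP2 (Srebf2) is the transcription factor that drives nearly all of these genes and is held in the endoplasmic reticulum by SCAP and the INSIG proteins as long as sterol is plentiful. When sterol falls, SCAP carries SREBP2 to the Golgi, where the proteases encoded by Mbtps1 and Mbtps2 release its active part. Cholesterol taken up with lipoprotein is known to switch this system down, and the question put to the data here is whether cells that took up much or little acLDL differed in it.

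The total count lay between 70263372 and 94216786 per library. In every library all 10 epithelial markers checked were above 1 CPM (counts per 1000000, scaled by TMM), while the macrophage genes Adgre1, Msr1 and Marco had 0 counts and Csf1r, Lyz2 and Itgam had at most 4. The summed level of the 12 macrophage markers was 19.3 to 21.6 CPM in acLDL-low and 20.1 to 24.4 CPM in acLDL-high libraries, with Cd68, Cd14 and Mrc1 as the markers above 1 CPM in at least 1 library. The endothelial genes Cldn5, Emcn and Erg had 0 counts, and the 10 endothelial markers summed to 81.3 to 136 CPM against 76.7 to 154 CPM, nearly all of it Flt1. The fibroblast markers Col3a1, Lum and Thy1 had 0 counts, and the 10 fibroblast markers summed to 30.4 to 42.3 CPM against 33.1 to 44.7 CPM. Most of this was Pdgfra, at 28.1 to 42.8 CPM, and Col1a1 and Postn were also above 1 CPM in at least 1 library. Among these markers Cldn3, Cldn4, Cldn7, Cd14 and Postn were called higher in acLDL-high cells, and their part in the results was not tested. Libraries of 1 occasion resembled each other more than libraries of 1 population did, so the populations were compared within occasions. Since these are bulk libraries, fewer cells with a transcript and less of it per cell cannot be told apart.

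The promoters of 5 members are shown with matches to DNA motifs. Hsd17b7, Nsdhl, Ebp and Erlin1 are shown because they had the smallest p of the members in the comparison of the populations. Hmgcs1 is shown as the only member whose window held the core of the sterol regulatory element. Each line gives the 150 bases before the RefSeq transcription start on GRCm38.p6, 5′ to 3′ on the strand of the gene, with capitals for matches to 4 motifs searched on both strands. The sterol regulatory element core was searched as TCACNCCAC. The box bound by the factor NF-Y was searched as CCAAT, and the GC box of Sp1 as GGGCGG. The E-box was searched as CACGTG. A match on the other strand reads as the reverse complement of these letters. None of these motifs contains another.
Hmgcs1, chr13:119690201-119690350, plus strand: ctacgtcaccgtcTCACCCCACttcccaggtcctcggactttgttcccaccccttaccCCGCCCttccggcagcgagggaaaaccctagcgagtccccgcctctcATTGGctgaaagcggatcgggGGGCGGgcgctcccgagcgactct
Hsd17b7, chr1:169969206-169969355, minus strand: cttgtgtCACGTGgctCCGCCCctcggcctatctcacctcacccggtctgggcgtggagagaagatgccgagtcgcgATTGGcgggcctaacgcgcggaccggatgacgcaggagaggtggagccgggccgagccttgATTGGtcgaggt
Nsdhl, chrX:72918371-72918520, plus strand: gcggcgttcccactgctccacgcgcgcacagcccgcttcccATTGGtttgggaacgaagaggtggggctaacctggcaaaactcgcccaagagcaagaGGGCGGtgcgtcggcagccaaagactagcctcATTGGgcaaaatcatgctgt
Ebp, chrX:8193513-8193662, minus strand: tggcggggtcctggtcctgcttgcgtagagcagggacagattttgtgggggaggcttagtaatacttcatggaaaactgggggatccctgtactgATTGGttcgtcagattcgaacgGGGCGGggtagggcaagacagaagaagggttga
Erlin1, chr19:44069786-44069935, minus strand: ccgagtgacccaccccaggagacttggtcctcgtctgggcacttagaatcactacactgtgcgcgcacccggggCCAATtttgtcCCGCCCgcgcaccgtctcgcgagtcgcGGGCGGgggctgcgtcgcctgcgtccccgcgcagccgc

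The sterol regulatory element of Hmgcs1 lay 137 to 129 bases before its start, and an NF-Y box 45 to 41 bases before it. NF-Y is known to bind beside SREBP2. Over the full RefSeq window, from 250 bases before to 50 after the start, 25 of the 31 members had a sequence, and 20 of them (80.0%) held CCAAT, against 43.3% of the 9851 genes tested here that had a window and 37.4% of all 32851 windows. The GC box stood in 22 of 25 members (88.0%), against 68.7% of the tested genes and 35.7% of all windows. The E-box stood in 7 of 25 (28.0%), against 11.5% and 7.15%. The strict sterol element core was in 1 of 25 (4.00%), against 1.37% and 1.24%, and its absence elsewhere says only that these letters are not in the window. Genes with several starts had several windows and were counted once among the genes.

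Between acLDL-high and acLDL-low cells the cholesterol synthesis genes differed little. A single member, Hsd17b7, passed the test and was higher in acLDL-high cells, 1 of 31 (3.23%) against 4.75% of all genes tested, and no member was called lower. The largest log2 fold change was 0.20 (Ebp), and the median over the 31 genes was 0.05, beside 0.0017 over all genes. The p-values come from edgeR's quasi-likelihood test, in which libraries of 1 occasion form a block, with Benjamini-Hochberg adjustment over 12572 genes. Without the replicate block 0 genes were called of 12329, members included, with 45 genes and 0 members at an unadjusted p under 0.05. At that unadjusted level with the block stood 5 members (16.1%) against 19.4% of all genes, of which 4 were higher and Erlin1 was lower. DESeq2 with the block called 1 member higher and 0 lower, against 3.24% and 0.892% of all genes.

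**Figure D1:**
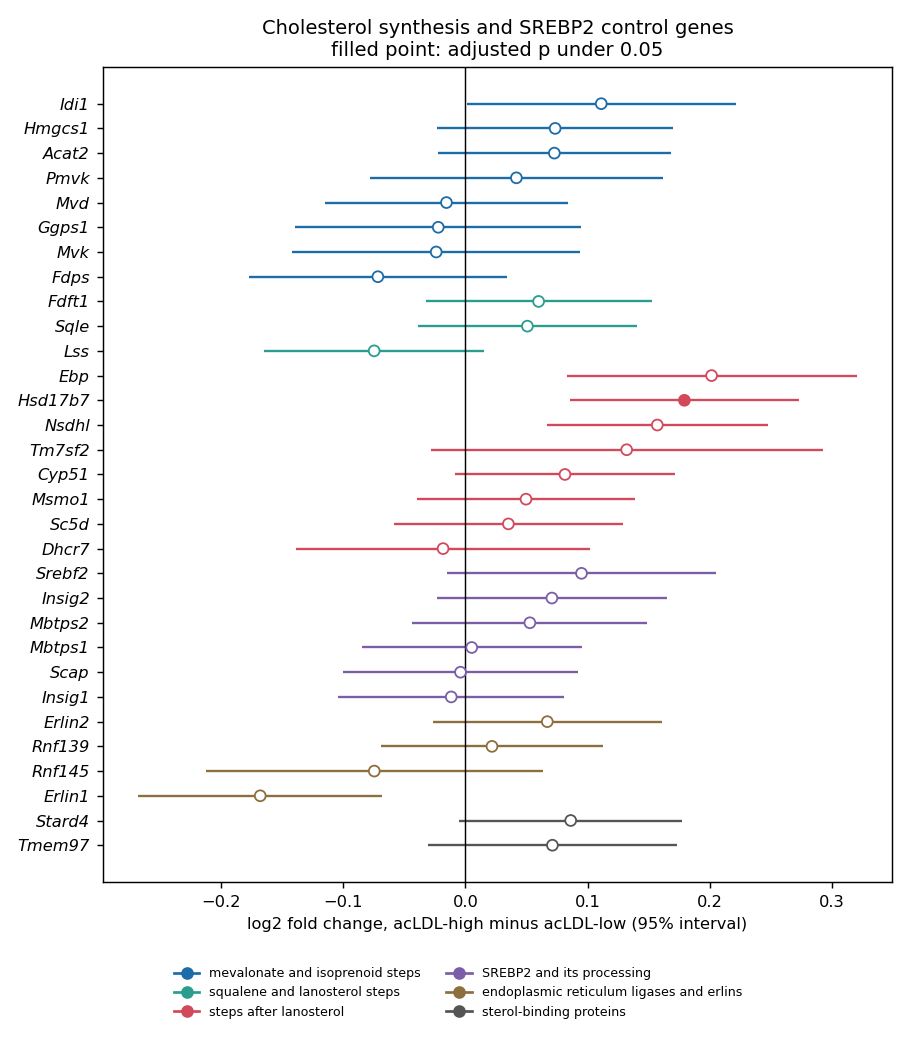
Log2 fold change of each of the 31 genes (acLDL-high minus acLDL-low, points) with its unadjusted 95% interval (lines), coloured and grouped by role, with a filled point where the adjusted p was under 0.05. The filled point is Hsd17b7 at 0.18, and all points lie between -0.17 (Erlin1) and 0.20 (Ebp).

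The edgeR intervals bound how far acLDL-high and acLDL-low cells differed in most of the members, given a spread estimated partly from all genes. They are not bounds from the 3 pairs of each gene alone. Rnf145, for example, differed by 0.11, -0.31 and -0.03 on the 3 occasions, beside a standard error of 0.06. The members were well counted, with at least 806 counts in every library, and the standard errors (SE) of their log2 fold changes ran from 0.04 to 0.07. The unadjusted 95% interval stayed within 0.2 of 0 on the log2 scale (1.15-fold) in 23 of 31 genes and within 0.3 (1.23-fold) in 30 of 31, the exception being Ebp. It left out 0 in 5 genes, namely Hsd17b7, Nsdhl, Ebp, Idi1 and Erlin1. For no member did the CPM values of the 3 acLDL-high libraries lie clear of those of the 3 acLDL-low libraries, which was the case for 2.86% of all genes. Of the 31 genes, 21 had a log2 fold change above 0 (50.6% of all genes), 11 were higher in acLDL-high cells on all 3 occasions (20.9% of all genes) and 2, Lss and Erlin1, were lower on all 3 (19.4% of all genes). Within the 3 occasions the median difference of the members was 0.05, 0.05 and -0.0028, beside 0.015, -0.0075 and -0.0002 over all genes.

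The 8 genes for steps after lanosterol held the only called member and 3 of the 4 higher members with an unadjusted p under 0.05. Their median log2 fold change was 0.11, with 0.15, 0.14 and 0.05 on the 3 occasions, and 5 of the 8 were higher on all 3. Over all genes tested, 3.43% were called higher and 20.9% were higher on all 3 occasions. An unadjusted p under 0.05 from edgeR, in either direction, was reached by 19.4%. Whether the late steps stand apart from the other members was not tested. Hsd17b7 encodes a sterol ketone reductase that acts when methyl groups are removed from lanosterol-derived sterols. On occasions 1, 2 and 3 it was at 94.4, 70.5 and 81.8 CPM in acLDL-low and 108, 83.2 and 88.4 CPM in acLDL-high cells. It was higher in acLDL-high cells on each occasion, by 0.19, 0.24 and 0.11 on the log2 scale, while the populations overlapped, with occasion 1 above the others in both. The log2 fold change was 0.18 (SE 0.04, interval 0.09 to 0.27, adjusted p = 0.0345 from edgeR). Leaving out any occasion ended this call, with an adjusted p of 0.0630 without occasion 1, 0.104 without occasion 2 and 0.103 without occasion 3, and fold changes between 0.15 and 0.21. The gene lies on chromosome 1 of GRCm38, from 169949535 to 169969241, and shares no exon sequence with another annotated gene.

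Nsdhl and Ebp stood just outside the threshold. Nsdhl encodes the dehydrogenase of the same demethylation complex. It was at 94.8, 102 and 78.1 CPM in acLDL-low and 109, 110.0 and 86.7 CPM in acLDL-high cells, with a log2 fold change of 0.16 (SE 0.04, interval 0.07 to 0.25, adjusted p = 0.0510). The acLDL-high library was above its partner on each occasion, and occasion 3 was lowest in both populations. The adjusted p of Nsdhl was 0.175, 0.0359 and 0.208 without occasions 1, 2 and 3. Ebp encodes the isomerase that shifts the ring double bond of the sterol, and was at 34.3, 46.1 and 33.3 CPM against 42.3, 54.7 and 34.4 CPM. Its log2 fold change was 0.20 (SE 0.05, interval 0.08 to 0.32, adjusted p = 0.0564), with 0.30 and 0.25 on occasions 1 and 2 and 0.05 on occasion 3. With DESeq2's size factors in place of TMM, Hsd17b7, Nsdhl and Ebp were all called, at adjusted p of 0.0270 for Hsd17b7, 0.0400 for Nsdhl and 0.0428 for Ebp, where 3.86% of all genes were called higher and 1.42% lower. DESeq2 with the block called neither Nsdhl (adjusted p = 0.0556) nor Ebp (0.0833), and Ebp was not called without any one occasion (0.178, 0.0964 and 0.0626).

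The other late genes were not called. Tm7sf2, a sterol reductase gene with the lowest level of all members, was at 14.4, 9.98 and 14.1 CPM against 16.1, 12.1 and 13.8 CPM, with a log2 fold change of 0.13 (SE 0.07, adjusted p = 0.361). It was higher in acLDL-high cells on occasions 1 and 2 and not on occasion 3. Cyp51, the lanosterol demethylase, had 0.08, Msmo1, an oxidase in the removal of methyl groups, 0.05, and Sc5d, a sterol desaturase, 0.04. Dhcr7, which completes one branch of the pathway, had -0.02, with 0.16 on occasion 2 and -0.10 and -0.12 on occasions 1 and 3. The adjusted p of these 4 genes lay between 0.313 and 0.902.

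**Figure D2:**
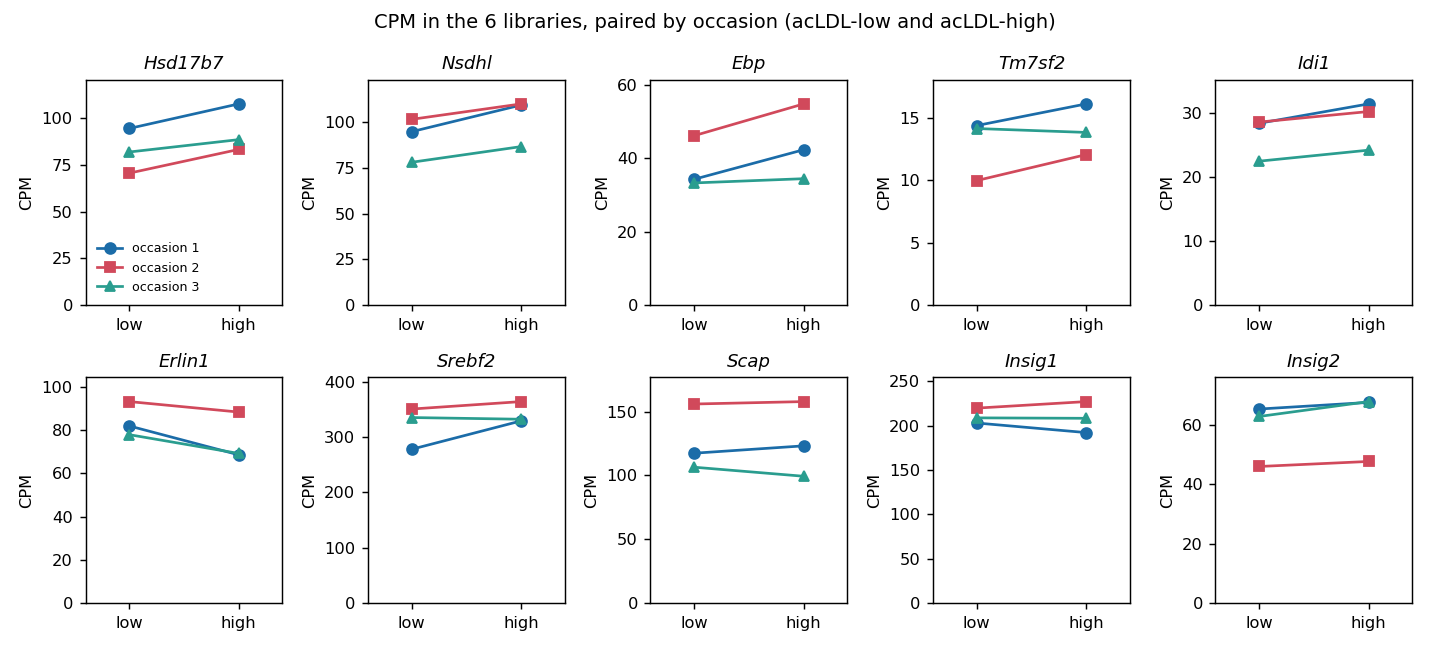
CPM of 10 genes in the 6 libraries, with a line joining the acLDL-low and acLDL-high library of each occasion and the vertical axis starting at 0. The lines of Hsd17b7, Nsdhl and Ebp rise on all 3 occasions and those of Erlin1 fall, and in each of the 10 genes the occasions lie farther apart than the populations.

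In the mevalonate and isoprenoid steps none of the 8 genes was called, 4 had a positive and 4 a negative log2 fold change, and the median was 0.01. Idi1, which interconverts the isoprenoid building blocks, had the largest difference, at 28.4, 28.6 and 22.5 CPM in acLDL-low and 31.4, 30.2 and 24.2 CPM in acLDL-high cells. It was higher by 0.15, 0.08 and 0.11 on the 3 occasions, with a log2 fold change of 0.11 (SE 0.05, unadjusted p = 0.0481, adjusted p = 0.253). An annotated gene of the opposite strand shares 323 bases of its exons. Hmgcs1, the synthase that feeds the rate-limiting reductase, and Acat2, the cytosolic thiolase before it, both had 0.07. Pmvk had 0.04, and the other kinase gene Mvk, the decarboxylase gene Mvd and Ggps1, which makes geranylgeranyl diphosphate, each had -0.02. Fdps, the farnesyl diphosphate synthase, had -0.07, with 1124 bases of its exons shared with another gene of the same strand. How the counting treated reads in shared exons is not given in the sources used here, so its value is uncertain. The same holds for Mbtps2, Tm7sf2 and Rnf139, with 2867, 532 and 197 exon bases shared on the same strand. In 8 members, Idi1 among them, exons overlap a gene of the opposite strand, from 166 bases in Cyp51 to 1140 in Rnf139. Whether the counting kept the strands apart is not given either. The 7 mevalonate and isoprenoid genes other than Idi1 had an adjusted p from edgeR between 0.404 and 0.900.

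For the squalene and lanosterol steps, Fdft1, which makes squalene, had a log2 fold change of 0.06 and Sqle, the epoxidase that is a known control point of the pathway, 0.05. Lss, the cyclase that makes lanosterol, had -0.07 and was lower in acLDL-high cells on all 3 occasions, by 0.04, 0.05 and 0.13. The adjusted p was 0.487 for Fdft1, 0.552 for Sqle and 0.359 for Lss.

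None of the 6 genes for SREBP2 and its processing was called, and their median log2 fold change was 0.03. Srebf2 itself was at 278, 351 and 336 CPM in acLDL-low and 329.6, 364 and 333 CPM in acLDL-high cells. The difference was 0.24 on occasion 1, 0.05 on occasion 2 and -0.01 on occasion 3, and the log2 fold change was 0.10 (SE 0.05, interval -0.02 to 0.21, adjusted p = 0.337). Scap, the sterol-sensing escort, was at 117, 156 and 106 CPM against 123, 158 and 99.4 CPM. Its populations differed by -0.0040 (interval -0.10 to 0.09, adjusted p = 0.975), whereas occasion 2 stood above the others in both. Insig1, the sterol-dependent anchor that is itself a target of SREBP2, was at 203, 219.8 and 209 CPM against 192, 227 and 208 CPM. That is a log2 fold change of -0.01 (interval -0.10 to 0.08, adjusted p = 0.922), with both directions among the occasions. Insig2, its relative, was at 65.4, 46.0 and 62.9 CPM against 67.6, 47.7 and 67.9 CPM, higher in acLDL-high cells each time, by 0.05, 0.05 and 0.11. The log2 fold change was 0.07 (interval -0.02 to 0.16, adjusted p = 0.410). The protease genes Mbtps1 and Mbtps2 had 0.0052 and 0.05 (adjusted p = 0.962 and 0.566).

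Among the ubiquitin ligases and erlins, proteins of the endoplasmic reticulum that take part in the turnover of the reductase and of INSIG, none of the 4 genes was called. Erlin1 had the lowest log2 fold change of the members. It was at 82.0, 93.3 and 77.9 CPM in acLDL-low and 68.6, 88.4 and 69.2 CPM in acLDL-high cells, lower by 0.26, 0.08 and 0.17. The log2 fold change was -0.17 (SE 0.05, interval -0.27 to -0.07, adjusted p = 0.0578), and the adjusted p from DESeq2 with the block was 0.0971. Without occasions 1, 2 and 3 the log2 fold change was -0.12, -0.22 and -0.16, with an adjusted p of 0.238, 0.00605 and 0.279. Its partner Erlin2 had 0.07 (adjusted p = 0.437), with -0.0082, 0.13 and 0.08 on the 3 occasions. The ligase genes Rnf139 and Rnf145 had 0.02 and -0.07 (adjusted p = 0.835 and 0.573). On the 3 occasions Rnf145 differed by 0.11, -0.31 and -0.03. Of the proteins that bind sterol, Stard4, a soluble carrier, had 0.09 and Tmem97, a sterol-regulated membrane protein, 0.07. Both were higher on all 3 occasions and neither was called (adjusted p = 0.287 and 0.447).

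Per kilobase of exon the pathway spanned from 3.05 RPKM for Tm7sf2 to 85.5 RPKM for Hmgcs1, as means over the 6 libraries. Below Hmgcs1 came Sqle at 67.9, Insig1 at 67.8, Cyp51 at 66.7 and Msmo1 at 61.9 RPKM, whose ranges over the libraries overlapped from neighbour to neighbour. A gap then separated Msmo1 from Pmvk at 50.4 RPKM. Srebf2 was at 46.2 RPKM and Scap at 17.0, and Insig1 lay above Insig2 (17.1 RPKM) in every library. In the whole order 5 of 30 neighbouring genes had ranges that did not overlap. Gene length here is the union of all annotated exons.

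**Figure D3:**
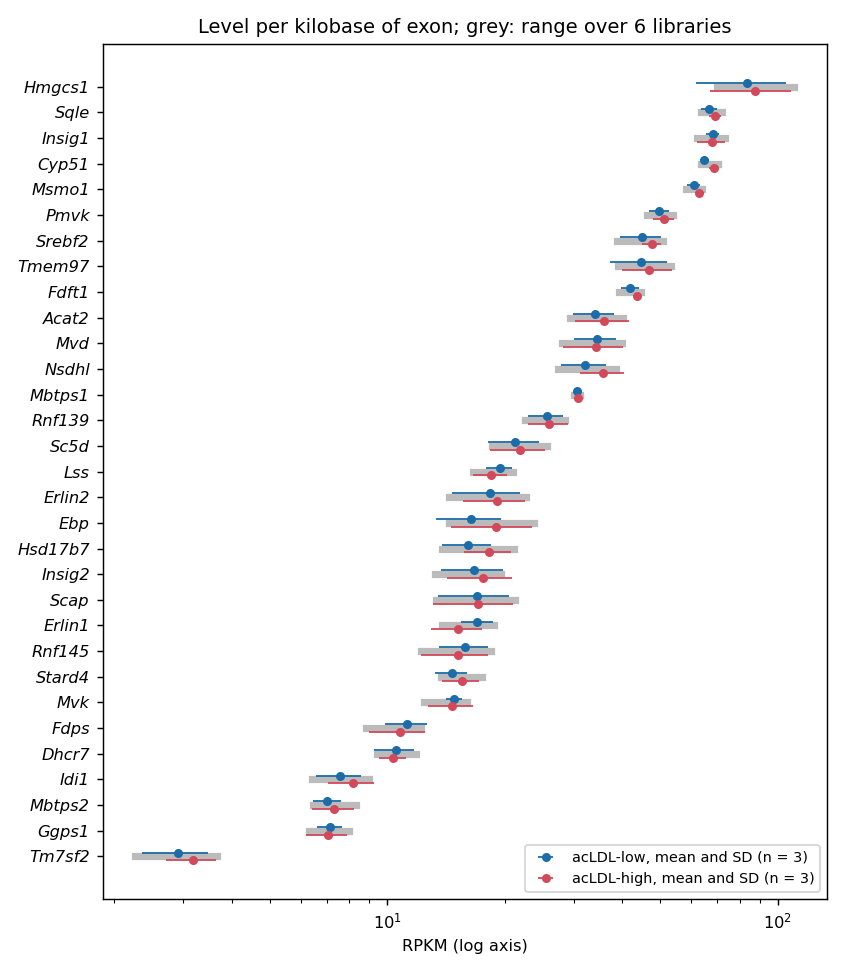
RPKM of the 31 genes on a log axis, ordered by the mean over 6 libraries, with the mean and SD of each population (n = 3) and the range over all libraries in grey. Hmgcs1 leads at 85.5 and Tm7sf2 is last at 3.05, and the population means of each gene lie close together.

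The members differed more between occasions of the experiment than between populations, as most genes did. The range of the 3 occasion means exceeded the population difference in 30 of 31 members, Cyp51 being the exception, against 95.4% of all genes. The range takes the widest gap among 3 means, so it is an unlike measure and tends to be the larger. In the same edgeR fit 25 of 31 members differed between occasions with an adjusted p under 0.05 (80.6%), against 78% of all genes tested. Each occasion is taken as 1 culture, so this test compares these 3 cultures. The median range of the members was 0.31 on the log2 scale, beside 0.45 over all genes, and it was above 0.5 in 5 members (16.1%) against 44.9% of all genes. The 5 were Hmgcs1, Scap, Ebp, Erlin2 and Insig2.

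Hmgcs1, singled out after its values were seen, had the widest range of the members, 0.63 or 1.55-fold. It was at 498, 332 and 320.0 CPM in acLDL-low and 507, 371 and 328 CPM in acLDL-high cells, highest on occasion 1 in both populations. Of the 19 enzyme genes, 14 had their lowest mean on occasion 3, 10 their highest on occasion 1 and 8 on occasion 2, whereas 31.6% of all genes were lowest on occasion 3. Of the other 12 members, 4 were lowest on occasion 3. Between occasions Mbtps1 varied least, by 0.02. Summed S phase genes, a measure of cycling cells, also differed between occasions, at 1856, 3854 and 1575 CPM in acLDL-low and 2114, 3403 and 1557 CPM in acLDL-high cells. Their part in the occasion differences was not tested.

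**Figure D4:**
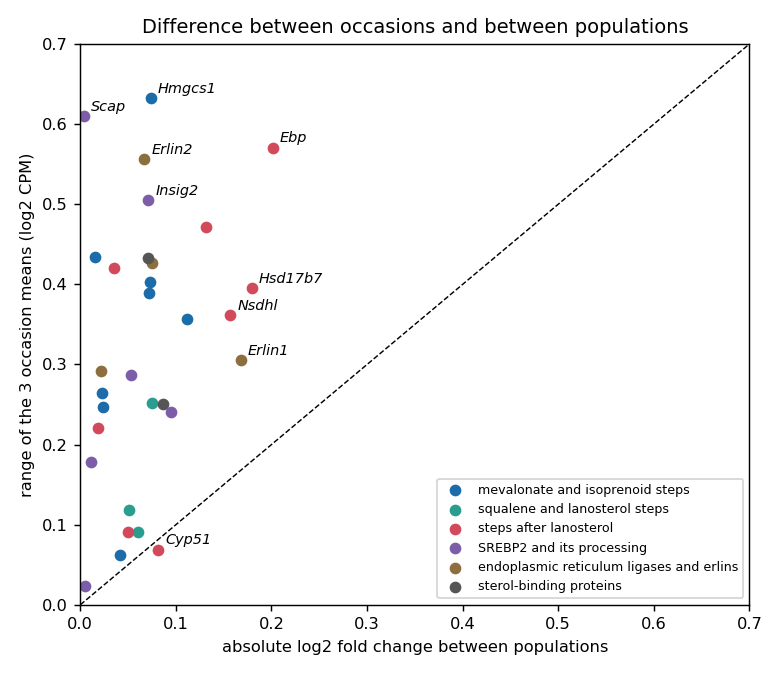
Range of the 3 occasion means (log2 CPM) against the absolute log2 fold change between populations for the 31 genes, with a dashed line where both are equal. All genes but Cyp51 lie above the line, from Mbtps1 near the origin to Hmgcs1 at a range of 0.63.

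Of 14 other genes for cholesterol synthesis and its control, 14 genes that use isoprenoids and 13 genes of fatty acid synthesis, 0 were called by edgeR, and 1, 1 and 3 had an unadjusted p under 0.05. DESeq2 with the block also called 0 of them. The list medians were 0.02, 0.01 and 0.02. Of 8 targets and partners of the sterol receptor LXR, 2 had an unadjusted p under 0.05 from edgeR, both higher in acLDL-high cells. Such a p was reached by 19.4% of all genes. Of these 8 genes Arl4c was called, with a log2 fold change of 0.20 (SE 0.05, adjusted p = 0.0381), at 297 ± 109 CPM in acLDL-low and 343 ± 131 CPM in acLDL-high cells (SD, n = 3). Its adjusted p was 0.181 without occasion 1 and 0.185 without occasion 3. Of 12 genes for sterol intake and storage, Soat2, which esterifies cholesterol, was lower, at 4.27 ± 2.11 CPM in acLDL-high against 6.13 ± 2.28 CPM in acLDL-low cells (SD, n = 3). Its log2 fold change was -0.56 (SE 0.10, adjusted p = 0.00970), with -0.63, -0.73 and -0.36 on the 3 occasions. Without occasion 3 its adjusted p was 0.0651.

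Genes of the cell cycle were followed as well. Of 25 G2/M genes, 18 were higher in acLDL-high cells and 0 lower (3.43% and 1.32% of all genes), 17 by DESeq2 and 6 without occasion 3, with a median log2 fold change of 0.30 and Ube2c (0.56), Nusap1 (0.52), Ccnb1 (0.49) and Top2a (0.45) in the lead. Their summed level on occasions 1, 2 and 3 was 5140, 4918 and 4119 CPM in acLDL-low and 5668, 6399 and 5109 CPM in acLDL-high cells. It was higher in acLDL-high cells on each occasion, like Hsd17b7, Nsdhl and Ebp, and its part in their differences was not tested. Of 20 S phase genes, 1 was called, Cdt1, which was lower by 0.19 on the log2 scale, and the list median was -0.01. That median joins 0.20, -0.21 and -0.03 on the 3 occasions, and 5 S phase genes were called lower without occasion 1 and 2 higher without occasion 2. The adjusted p of Cdt1 was 0.0458, and 0.0807 and 0.311 without occasions 2 and 3.

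**Figure D5:**
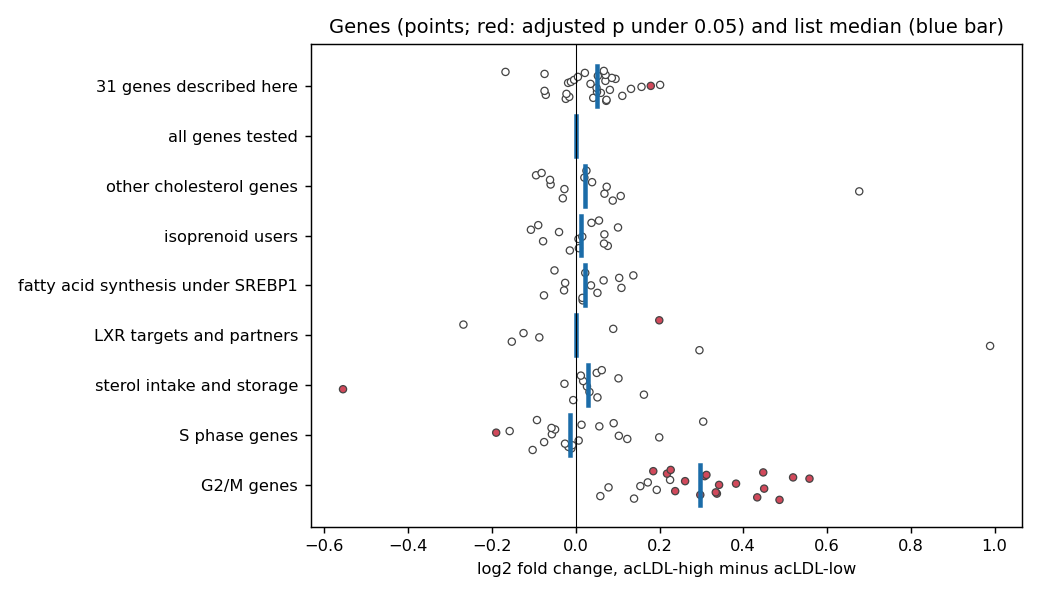
Log2 fold change of each gene (points, red where the adjusted p was under 0.05) and the median (blue bar) of the 31 genes, of all genes tested (median only) and of 7 other lists. The list medians lie between -0.01 (S phase genes) and 0.05 (the 31 genes), apart from the G2/M genes at 0.30, and single genes of other lists lie farther from 0 without passing the test.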

How the data were processed

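RNA-Seq libraries (poly(A), stranded kit, paired 50-base reads) were aligned with STAR 2.5.2a and counted per gene with featureCounts 1.4.3-p1 on mm10, and the authors deposited the raw counts. The annotation release and the strand setting of the counting are not given in the sources used here. A table of the authors' own comparison was used for gene symbols and the list of 15973 protein-coding genes, and its fold changes and p-values were not used.

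Counts were filtered with filterByExpr, scaled by TMM and fitted with edgeR 4.0.16 (R 4.3.3), with the replicate number as a block and Benjamini-Hochberg adjustment over 12572 genes (threshold 0.05). Standard errors were taken from the fold change and the root of its F statistic. Differences within occasions used log2 CPM with a prior count of 2. The same fit gave the test between occasions. CPM values are per 1000000 counts of the TMM-scaled library size, and RPKM divides them by the exon length of GENCODE annotation. Intervals cover 95% and are not adjusted. A count of 3, taken as the floor, is 0.0318 to 0.0427 CPM. The scripts were tested on simulated data in which the changes were larger than any seen in the members. That test therefore does not show how well differences of the size seen here are found.

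The libraries were paired by replicate number, which the labels give without saying what it stands for. Deviations from the population means correlated at 0.795, 0.846 and 0.799 within pairs and at most -0.0882 between different numbers. The deviations of each gene sum to 0 within a population, so positive values within pairs push the others below 0. Nothing shows that the occasions were more than repeats of 1 clone. With the block, the edgeR p-values between populations weigh the difference within occasions against an estimated spread. That spread is drawn partly from all genes, so it is not the spread of each gene over these cultures alone.

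The members and gene lists were chosen with earlier results of these data known. Values in every library are given for called members, Srebf2, Scap, Insig1, Insig2 and the 6 members with the largest fold change, and at most 4 called genes are named from other lists. DESeq2 1.42.0, its size factors, other filters, all genes of the count table, an adjusted p under 0.01, no replicate block and leaving out each occasion were tried. Promoter windows are from RefSeq (GRCm38.p6). The planned comparison of protein sequences was not run.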

Additional observations from a re-analysis of the deposited data

How the results depend on the processing

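Without the replicate block, 0 genes were called higher (431 with it) and 0 lower (166 with it), and 0 members were higher, and DESeq2 without the block also gave 0 for each. The block therefore decides every call described, Hsd17b7 included. With no low-count filter 669 genes were higher and 263 lower, with 3 members higher and 1 lower. At an adjusted p under 0.01, 171 genes were higher and 28 lower, with 0 members higher. DESeq2 with the block called 101 genes lower. Of the members, 3 were higher with DESeq2's size factors (485 of 12572 genes), 3 with all genes of the count table (496 of 16232) and 2 with at least 10 counts in every library (423 of 11742). Leaving out each occasion in turn gave 112 to 602 genes higher (112 without occasion 3), 14 to 267 lower, 0 to 1 members higher and 0 to 1 members lower. The median of the members stayed between 0.0323 and 0.0639 under all alternatives. The count differing between occasions was 25 under the 3 alternatives run for it, namely DESeq2's size factors, no filter and at least 10 counts. Of 310 member values under alternatives, 279 kept direction and side of the threshold, 10 newly passed it, 5 no longer passed it and 16 changed sign, in 11 members. Scap changed sign to 0.0060 without the block, 0.0023 with DESeq2 without the block, 0.0028 without the filter and 0.0062 with all genes. The others did so when an occasion was left out, with log2 fold changes of -0.0622 to 0.0512 for Mvk, -0.0431 to 0.12 for Pmvk, -0.063 to 0.018 for Mvd, -0.084 to 0.022 for Ggps1, -0.00011 to 0.0736 for Sc5d, -0.111 to 0.0333 for Dhcr7, -0.043 to 0.0231 for Insig1, -0.0394 to 0.0449 for Scap, -0.0143 to 0.017 for Mbtps1, -0.167 to 0.0405 for Rnf145 and -0.00957 to 0.0467 for Rnf139. The cause was not tested. The members had at least 806 counts in every library. The 95% intervals of the members reached 0.0895 to 0.160 to each side on the log2 scale before adjustment. Nsdhl, Ebp, Idi1 and Erlin1 exceeded theirs without being called.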
